A study of Homo sapiens with 4 samples.

Results

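The integrated stress response and the amino acid response form a shared gene programme, and 50 of its genes were followed here in a lung cancer line given doxycycline (dox). The genes were chosen by name and known role, with earlier results of these data known, as a check for a response to dox itself. They are 3 kinases of the translation factor eIF2 alpha, 8 transcription regulators, 5 feedback and growth-restraining genes, 4 secreted factors and receptors, 11 enzymes of amino acid and one-carbon synthesis, 7 amino acid transporters and 12 cytosolic tRNA synthetases. All 50 are among the 58302 genes of the deposited tables, and 48 are among the 16181 genes with enough reads to be tested.

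The cells were MIB1-iKO cells, made from NCI-H838, a line from a human non-small cell lung tumour. They carry a piggyBac-integrated construct with a dox-inducible Cas9, a guide against MIB1 and a puromycin resistance gene. MIB1 is an E3 ubiquitin ligase that acts on Notch ligands. Such lines were made from single cells, and the labels do not say which clone or which guide was sequenced. All 4 RNA-seq libraries come from day 3 of culture, 2 without dox (no dox) and 2 with dox at 0.5 µg/mL. Cells of every library carry the construct, and the study describes their BMP signaling as basal. No library without the MIB1 guide was given dox, so dox exposure, induction of Cas9 and loss of MIB1 cannot be told apart in any difference given here.

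Cells under several kinds of stress phosphorylate eIF2 alpha, which lowers protein synthesis in general while the mRNA of the transcription factor ATF4 is translated more. Kinases that do this include those followed here, which respond to different signals. EIF2AK4 (GCN2) responds to uncharged tRNA, and EIF2AK3 (PERK) to unfolded protein in the endoplasmic reticulum (ER). EIF2AK1 (HRI) responds to heme shortage and, through the protein DELE1, to mitochondrial stress. ATF4 then raises genes that import amino acids, make them and charge them onto tRNA. Doxycycline is a tetracycline that can bind the mitochondrial ribosome and slow mitochondrial protein synthesis, and this is a known way to switch on ATF4 targets in cultured cells.

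ATF4 pairs with C/EBP proteins on a composite DNA element with the core TGATGNAA, read on either strand. The letters were searched in the 250 bases before each RefSeq transcription start (GRCh38.p14). Of the 50 genes, 40 had a promoter in the table, and 9 of their 62 promoters (14.5%) held the letters, against 1104 of all 35116 promoters (3.14%). The 9 genes are AARS1, ASNS, ATF3, CEBPG, CHAC1, FGF21, GARS1, IARS1 and SLC1A5. The windows of ASNS, ATF3, CHAC1 and AARS1, all described in full below, are shown to place these letters within the promoters. Distances are from the RefSeq start, and by GENCODE gene positions each window but that of ATF3 lies inside the gene. Each is 30 bases of the gene's own strand, 5′ to 3′, with the match in capitals.
ASNS (chr7:97872458-97872487, minus strand, bases -68 to -61 from the start): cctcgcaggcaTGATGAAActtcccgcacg
ATF3 (chr1:212565205-212565234, plus strand, bases -191 to -184): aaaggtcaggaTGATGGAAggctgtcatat
CHAC1 (chr15:40953251-40953280, plus strand, bases -209 to -202, match on the opposite strand): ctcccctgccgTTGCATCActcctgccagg
AARS1 (chr16:70289675-70289704, minus strand, bases -187 to -180, match on the opposite strand): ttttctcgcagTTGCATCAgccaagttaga

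Sequencing depth ran from 15943025 to 24398411 reads counted to genes per library, with both dox libraries below both no dox libraries. The 50 genes took 0.488% to 0.566% of these reads. Levels are given as the deposited RPKM, reads scaled to gene length and to a factor for each library. Relative to the first no dox library, that factor was 0.93 for the second, and 0.65 and 0.77 for the dox libraries. Total counted reads stood at 0.87, 0.65 and 0.70 in the same order, so the factor was not this total. Differences are log2 fold changes of dox against no dox, with standard error (SE), from limma fitted on all 16181 genes. A gene was called at a Benjamini-Hochberg adjusted p of at most 0.05 together with at least a 2-fold change. MIB1 (18:21704957-21870953, plus strand) gave 2.66 and 2.81 RPKM without dox against 0.617 and 0.340 with it, which is -2.58 ± 0.23 on the log2 scale (limma, adjusted p = 0.00037). The epithelial genes EPCAM, KRT8, KRT18 and CDH1 were detected in every library, KRT19 had 0 reads, and the leukocyte gene PTPRC and the fibroblast gene COL1A2 had 0 reads. The keratins were lower in dox without overlap, KRT8 at 22.1 and 23.0 RPKM without dox against 17.9 and 17.0 with it, and KRT18 at 48.1 and 55.7 against 35.9 and 40.3. Their log2 fold changes were -0.34 and -0.41 (limma, adjusted p = 0.362 and 0.339). EPCAM and CDH1 were higher in dox, also without overlap. EPCAM stood at 9.70 and 9.75 RPKM without dox against 10.25 and 10.87 with it, and CDH1 at 3.01 and 3.07 against 3.09 and 4.07. Log2 fold changes of EPCAM and CDH1 were 0.13 and 0.25 (limma, adjusted p = 0.829 and 0.705). The part of these epithelial genes in the results was not tested. The collagen gene COL1A1 was read 89 and 82 times without dox against 22 and 83 times with it, and CD3E, PECAM1, CDH5 and DCN had at most 10 reads in any library.

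None of the 48 tested genes of the programme was called, where 6 of all 16181 genes (0.0371%) were. The lowest adjusted p among them was 0.3024, for ALDH1L2 (limma). In edgeR's quasi-likelihood test, also, 0 of the 48 were called. DESeq2 called 0 of the 44 to which it gave an adjusted p, and gave none to ATF5, CHAC1, GDF15 and CBS. At an unadjusted p below 0.05 there were 7 (14.6%), against 9.28% of all genes. PPP1R15A, ALDH1L2 and PYCR1 were the 3 higher in dox, where the share of all genes was 4.68%, and ATF5, TRIB3, SLC7A5 and SLC1A4 were the 4 lower, where it was 4.59%. The 48 log2 fold changes had a median of 0.03, beside 0.00 over all genes, with 28 above 0 and 20 below. In RPKM, the dox and no dox libraries did not overlap for 22 of the 48 (45.8%), beside 38.6% of all genes tested, with 9 higher and 13 lower in dox.

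The precision of these comparisons depended on the reads. The 95% interval of the fold change lay within 2-fold in both directions for 44 of the 48 genes and within 1.5-fold for 32. The 43 genes averaging 50 reads or more all had intervals within 2-fold, and their log2 fold changes ran from -0.42 (TRIB3) to 0.53 (ALDH1L2). Of the other 5 tested genes, CHAC1 had an interval within 2-fold, and ATF5, GDF15, CBS and SLC1A4 did not. With 2 libraries against 2, an exact two-sided permutation test of a single gene cannot give a p below 0.333, so single genes are given by their values and the limma fit.

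**Figure D1:**
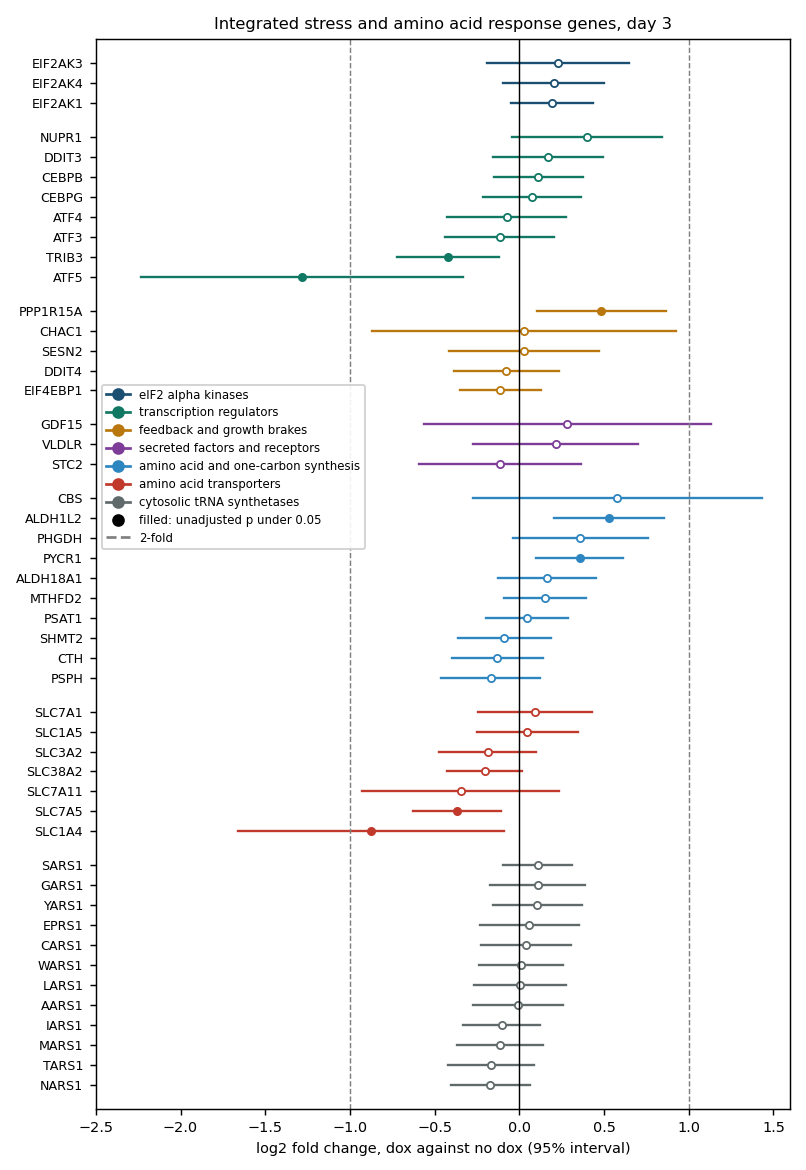
Log2 fold change of dox against no dox with its 95% interval for each of the 48 tested genes, grouped by role. Points lie on both sides of 0 in most groups, and 44 of 48 intervals stay within 2-fold.

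Levels of the programme spanned a wide range before any dox. Among no dox means, SARS1 was the highest at 248 ± 11.2 RPKM (SD, n = 2), followed by EIF4EBP1 at 124 ± 11.1, IARS1 at 102 ± 3.69 and SLC38A2 at 101 ± 3.28. From IARS1 down through SLC38A2, SLC3A2 and EIF2AK1, at 102 to 94.4 RPKM, neighbours in this order differed by less than the larger of their SDs. At the other end, CHAC1 stood at 0.439 ± 0.00687, CBS at 0.328 ± 0.0277 and ASNS at 0.0971 ± 0.00764 RPKM. FGF21, a secreted hormone under ATF4 control, had 0 reads in all 4 libraries, which allows up to 3 reads per library. The most abundant role was the tRNA synthetases, with a median of 52.3 RPKM, and the least abundant was the secreted factors and receptors, with 0.918 over the 3 that had reads.

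**Figure D2:**
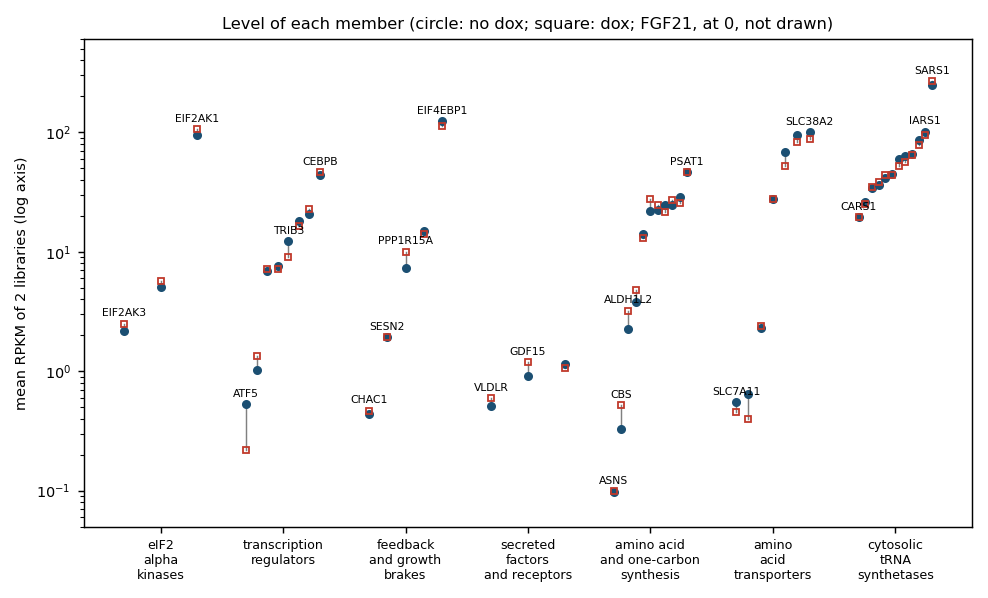
Mean RPKM (log axis) of each gene in the no dox and dox libraries, by role, with FGF21 left out because it had 0 reads. The tRNA synthetases run from 19.7 (CARS1) to 248 RPKM (SARS1) without dox, while the secreted factors and receptors lie near 1.

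The eIF2 alpha kinases head the pathway. EIF2AK1 stood at 94.7 and 94.1 RPKM without dox and at 104 and 111 with dox, and its log2 fold change was 0.19 ± 0.11 (limma, adjusted p = 0.644). EIF2AK4 stood at 4.91 and 5.21 without dox and 5.10 and 6.33 with dox (0.20 ± 0.14). EIF2AK3 gave 2.02 and 2.33 without dox and 2.09 and 2.92 with dox (0.23 ± 0.20). Only EIF2AK1 of these 3 kinases had groups that did not overlap, and in EIF2AK3 and EIF2AK4 the dox libraries differed from each other more than the group means did. The abundance of these mRNAs does not report kinase activity, which was not measured in these libraries. The genes around them encode eIF2, its exchange factor eIF2B, the eIF2 phosphatase and a further eIF2 alpha kinase, EIF2AK2 (PKR). DELE1, OMA1, GCN1 and IMPACT were listed with these. Of the 17, 0 were called and 0 had an unadjusted p below 0.05, from EIF2B1 at -0.20 to DELE1 at 0.25. EIF2AK2 stood at 6.11 and 6.58 without dox and 5.33 and 6.01 with dox, the lower pair, at -0.12 ± 0.13.

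ATF4 mRNA, the core of the programme (ENSG00000128272, 22:39519695-39522683, plus strand), gave 8.41 and 6.87 RPKM without dox against 7.49 and 6.74 with it. The groups overlapped, and the log2 fold change was -0.08 ± 0.16 (limma, adjusted p = 0.925) and a 95% interval of 0.744- to 1.21-fold. ATF4 is controlled largely in translation, and its protein was not measured in these libraries. The study's separate proteomics of MIB1-iKO cells does not list ATF4 among changed proteins, and whether it was quantified there is not stated. DDIT3 (CHOP), which ATF4 induces in prolonged stress, stood at 22.5 and 18.8 without dox and 24.7 and 21.4 with dox (0.17 ± 0.15). Of its exonic bases, 39.6% are shared with other genes, among them MARS1 and MBD6 on the opposite strand and a gene on the same strand, and whether the counts used strand is not stated. ATF3, a stress-induced repressor, stood at 19.7 and 16.8 without dox and 18.9 and 14.2 with dox (-0.12 ± 0.15). In ATF4, DDIT3 and ATF3 alike, a dox library lay inside the no dox range.

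The pseudokinase TRIB3, an ATF4 target that feeds back on ATF4 (20:362835-397559, plus strand), stood at 11.5 and 13.2 RPKM without dox and at 8.52 and 9.56 with dox. Both dox libraries lay below both no dox libraries, with means of 12.3 ± 1.24 and 9.04 ± 0.738 (SD, n = 2). Its log2 fold change of -0.42 ± 0.14 did not pass adjustment (limma, adjusted p = 0.363), and its 95% interval ran from 0.605- to 0.922-fold. ATF5, another stress transcription factor (19:49928702-49933935, plus strand), was read 31 and 31 times without dox against 8 and 11 times with it, or 0.512 and 0.550 RPKM against 0.204 and 0.236. The dox libraries were again the lower pair, at -1.28 ± 0.44 (limma, adjusted p = 0.377), on few reads and with 22.1% of its exonic bases shared with other genes. The size depended on the scale, at -0.98 on log2(RPKM + 0.1) and -0.33 on log2(RPKM + 1). NUPR1, a small chromatin protein induced by stress, stood at 1.02 and 1.03 without dox and at 1.41 and 1.29 with dox, non-overlapping at 0.40 ± 0.21 (limma, adjusted p = 0.591). CEBPB and CEBPG, both partners of ATF4, had log2 fold changes of 0.11 ± 0.12 and 0.08 ± 0.14 with overlapping libraries.

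Among the feedback genes, PPP1R15A (GADD34), which directs the phosphatase that reverses eIF2 alpha phosphorylation (19:48872212-48876059, plus strand), stood at 7.52 and 7.01 RPKM without dox and at 8.28 and 11.8 with dox. Both dox libraries were above both no dox libraries, but they differed widely from each other, with means of 7.27 ± 0.357 and 10.1 ± 2.51 (SD, n = 2). The log2 fold change was 0.48 ± 0.18 (limma, adjusted p = 0.407), and it was 0.21 without the second dox library and 0.75 without the first. CHAC1, which degrades glutathione and is among the most responsive ATF4 targets, was read 21 and 20 times without dox against 15 and 17 times with it. Its RPKM was 0.434 and 0.444 in the no dox pair and 0.478 and 0.456 in the dox pair, without overlap. The log2 fold change was 0.03 ± 0.42, and at these reads the 95% interval spanned 0.548- to 1.90-fold. SESN2 and DDIT4, both restraints on mTORC1, differed by 0.03 ± 0.21 and -0.08 ± 0.14. SESN2 stood at 1.82 and 2.02 without dox and 2.00 and 1.89 with dox, and DDIT4 at 14.3 and 15.3 without dox and 15.1 and 12.9 with dox. Both sets overlapped. EIF4EBP1, which restrains cap-dependent translation, stood at 132 and 116 without dox and 115 and 110 with dox, the dox pair just below the other, at -0.11 ± 0.11.

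**Figure D3:**
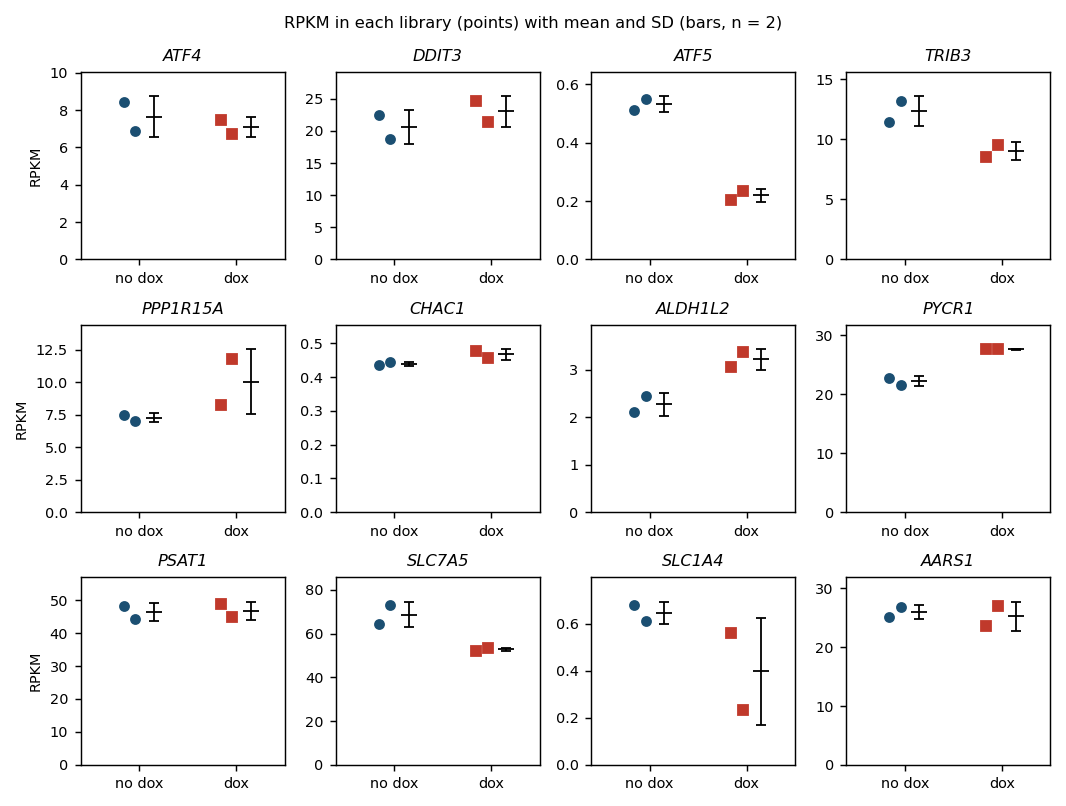
RPKM in each library (points) with the mean and SD (bars, n = 2) for selected genes, on axes that start at 0 and are scaled gene by gene. TRIB3 and SLC7A5 have both dox libraries below both no dox libraries, ALDH1L2 and PYCR1 have both above, and ATF4 overlaps.

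Of the secreted factors, GDF15, a circulating stress hormone, stood at 0.922 and 0.914 RPKM without dox and at 1.48 and 0.920 with dox. The second dox library lay within the no dox range and only the first was above it, and the log2 fold change was 0.28 ± 0.39 (limma, adjusted p = 0.876) on 20 to 27 reads per library. STC2, a secreted glycoprotein, had a log2 fold change of -0.12 ± 0.22. VLDLR, a lipoprotein receptor, stood at 0.534 and 0.484 without dox and at 0.630 and 0.560 with dox, which did not overlap, at 0.21 ± 0.23.

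The synthesis enzymes held the 2 genes of lowest unadjusted p on the higher side. ALDH1L2, a mitochondrial folate enzyme (12:105019784-105107643, minus strand), stood at 2.10 and 2.44 RPKM without dox and at 3.06 and 3.37 with dox. The groups did not overlap, the means being 2.27 ± 0.242 and 3.22 ± 0.219 (SD, n = 2), and the log2 fold change was 0.53 ± 0.15 (limma, adjusted p = 0.302). PYCR1, the mitochondrial enzyme that completes proline synthesis (17:81932384-81942412, minus strand), stood at 22.8 and 21.6 without dox and at 27.6 and 27.6 with dox. The dox pair was the higher one, at 0.36 ± 0.12 (limma, adjusted p = 0.363), and 29.7% of its exonic bases are shared with other genes.

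The serine pathway gave mixed values. PHGDH, its first enzyme, stood at 3.29 and 4.33 RPKM without dox and 4.98 and 4.54 with dox, without overlap, at 0.36 ± 0.19 (limma, adjusted p = 0.591). PSAT1, the next enzyme, stood at 48.4 and 44.4 without dox and at 48.8 and 44.9 with dox, at 0.04 ± 0.11. PSPH, the last, had -0.17 ± 0.14. MTHFD2, a mitochondrial folate enzyme and a sensitive marker of mitochondrial stress, stood at 23.8 and 21.2 without dox and 25.4 and 23.5 with dox, at 0.15 ± 0.11, and the groups overlapped. SHMT2, which starts the mitochondrial folate pathway, had -0.09 ± 0.13. The cysteine enzymes CTH and CBS had -0.13 ± 0.13 and 0.58 ± 0.40, the latter on 20 to 25 reads per library, and ALDH18A1, upstream of PYCR1 in proline synthesis, had 0.16 ± 0.14. Of the 10 synthesis genes tested, 7 were above 0 and 3 below, with a median of 0.16.

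ASNS, asparagine synthetase, is a standard reporter of the amino acid response, and its reads were few here (7:97851677-97872542, minus strand). It was read 6 and 5 times without dox against 5 and 3 times with it, too few to test. A same-strand non-coding gene, ENSG00000284707, shares 49.3% of its exonic bases and was read 54 and 71 times without dox against 53 and 67 times with it. The low ASNS count is therefore uncertain, and the non-coding gene itself differed by 0.38 ± 0.28 on the log2 scale (limma, adjusted p = 0.729).

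Of the transporters, 5 of 7 were below 0, with a median log2 fold change of -0.21. SLC7A5 (LAT1), which imports large neutral amino acids (16:87830023-87869507, minus strand), stood at 64.5 and 72.9 RPKM without dox and at 52.2 and 53.3 with dox. Both dox libraries lay below both no dox libraries, with means of 68.7 ± 5.90 and 52.7 ± 0.760 (SD, n = 2), at -0.37 ± 0.12 (limma, adjusted p = 0.361). SLC3A2, the heavy chain that pairs with SLC7A5, stood at 87.7 and 103 without dox and at 78.7 and 86.1 with dox, also the lower pair, at -0.19 ± 0.13. Left-out libraries moved both: without the second no dox library SLC7A5 was at -0.22 and SLC3A2 at -0.01, and without the first they were at -0.53 and -0.37. SLC38A2 (SNAT2), a transporter of small neutral amino acids, stood at 103 and 98.5 without dox and 87.5 and 88.3 with dox, without overlap, at -0.21 ± 0.10 (limma, adjusted p = 0.577).

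SLC1A4, another neutral amino acid transporter (2:64988477-65023865, plus strand), was read 75 and 63 times without dox against 40 and 20 times with it, or 0.680 and 0.613 RPKM against 0.559 and 0.235. Its log2 fold change of -0.88 ± 0.37 (limma, adjusted p = 0.48) depended on the second dox library: it was -0.26 without it and -1.49 without the first. SLC7A11 (xCT), the cystine importer, showed the same split, at 0.547 and 0.554 without dox and 0.592 and 0.326 with dox. Its value was -0.35 ± 0.27, and it was 0.07 without the second dox library and -0.75 without the first. SLC1A5, a glutamine transporter, and SLC7A1, which imports cationic amino acids, had 0.05 ± 0.14 and 0.09 ± 0.16.

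The 12 cytosolic tRNA synthetases, which load amino acids onto tRNA and are ATF4 targets as a class, came next. Their log2 fold changes ran from -0.17 (NARS1) to 0.11 (SARS1), with 7 above 0, 5 below and a median of 0.01. All 12 intervals lay within 1.5-fold in both directions, and none had an unadjusted p below 0.05. AARS1, whose promoter holds the letters shown above, stood at 25.1 and 26.9 RPKM without dox and at 23.6 and 27.0 with dox, at -0.01 ± 0.12. WARS1 stood at 43.4 and 45.8 without dox and 42.9 and 45.7 with dox, at 0.01 ± 0.12. NARS1 stood at 60.2 and 59.9 without dox and at 52.0 and 53.5 with dox, without overlap (limma, adjusted p = 0.675). IARS1, MARS1 and TARS1 were likewise non-overlapping and lower in dox in RPKM, while CARS1, EPRS1, GARS1, LARS1, SARS1 and YARS1 overlapped. The 7 tested genes with the letters in a promoter had log2 fold changes from -0.12 to 0.11.

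Neighbouring pathways were read beside the programme. Of 28 tested further ATF4 targets, 0 were called and the median was -0.04, from SLC6A9, a glycine transporter, at -0.64 to CCPG1, an ER-phagy receptor, at 0.53 (limma, adjusted p = 0.305). At an unadjusted p below 0.05 there were 9 of them (32.1%, beside 9.28% of all genes), 6 higher and 3 lower. CCPG1 shares 40.0% of its exonic bases with other genes. The 14 mitochondrial chaperones and proteases, the class raised by the mitochondrial unfolded protein response, had 0 called, 0 at an unadjusted p below 0.05 and a median of 0.01, from AFG3L2 at -0.20 to HTRA2 at 0.16, and all 14 intervals lay within 1.5-fold. Of the 23 tested ER chaperones and targets of XBP1 or ATF6, 0 were called and 3 had an unadjusted p below 0.05, with values from EDEM1 at -0.39 to ERO1B at 0.61. ERO1B was read only 40 and 26 times without dox against 41 and 35 times with it. The 17 mitochondrial tRNA synthetases ran from MARS2 at -0.45 to AARS2 at 0.29. The 11 genes of other cytosolic synthetases and their partner proteins ran from AIMP2 at -0.32 to AIMP1 at 0.21. Each list had 0 called and 1 at an unadjusted p below 0.05 (MARS2 and AIMP2). AIMP2 shares 29.1% of its exonic bases with EIF2AK1 on the opposite strand. AIMP1, AIMP2 and EEF1E1 encode partner proteins rather than synthetases. Without them, that list ran from HARS1 at -0.20 to QARS1 at 0.11.

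The 13 protein-coding genes of mitochondrial DNA, whose mRNAs are those that dox can keep from translation, had mostly positive values. MT-ATP6 shares exonic bases with MT-ATP8 on the same strand, as MT-ND4 does with MT-ND4L. None was called. Of them 11 (84.6%) were above 0, beside 49.9% of all genes, with a median of 0.15. At an unadjusted p below 0.05 there were 5 (38.5%), all higher, beside 4.68% of all genes. These genes are not replicates of each other, so the share is a description. Together they took 0.137% and 0.161% of counted reads without dox and 0.164% and 0.173% with dox. MT-CYB, a subunit of complex III, stood at 191 and 207 RPKM without dox and at 266 and 258 with dox, and had the lowest adjusted p of the list (limma, 0.273). MT-ND3, of complex I, was highest at 0.52 and MT-CO1, of complex IV, lowest at -0.05. Protein made from these mRNAs was not measured in these libraries. The study's separate proteomics of MIB1-iKO cells with and without dox lists changed proteins and names none of these. Whether they were quantified there is not stated.

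**Figure D4:**
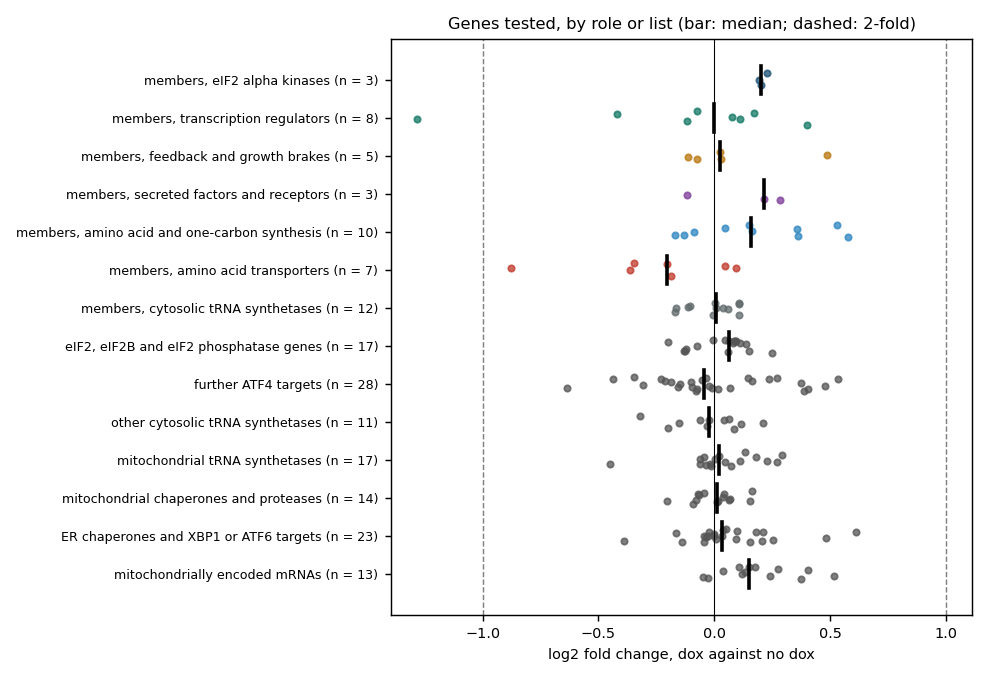
Log2 fold change of every tested gene (points) by role and by neighbouring list, with the median as a bar and 2-fold marked by dashed lines. Medians lie between -0.21 (transporters) and 0.21 (the 3 secreted factors and receptors).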

How the data were processed

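Values came from 4 RNA-seq libraries. Per the methods, the authors removed ribosomal RNA reads, used GSNAP with GRCh38 for alignment, and deposited per-gene exon read counts and RPKM. The library kit used for these samples and the use of strand in counting are not given in the sources used here. Counts were fitted as the methods describe, with voom, library-size scaling and quantile normalization in limma 3.58.1 (R 4.3.3), after edgeR's filterByExpr. RPKM served as levels. Overlap of groups was read from RPKM and was not repeated on counts scaled to total reads, where it can differ for some genes. Alternatives used edgeR 4.0.16 and DESeq2 1.42.0. The fit was tested on simulated data. Gene positions and shared exonic bases came from GENCODE 44 (GRCh38), and promoters from RefSeq (GRCh38.p14). The methods name a RefSeq annotation while the deposited tables hold Ensembl identifiers, so the gene models counted, and with them the shares of shared bases, are uncertain. The replicates are described as biological. Replicate libraries differed beyond sampling noise (chi-square per degree of freedom 9.34 without dox, 13.1 with dox).

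The genes and lists were chosen with earlier results of these data known, so no p was adjusted over a list alone. Every gene of the programme is named. Values in each library are given for those at an unadjusted p below 0.05 and for a fixed set of central genes. For the neighbouring lists, the genes with the highest and lowest log2 fold change are named.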

Additional observations from a re-analysis of the deposited data

How the results depend on the processing

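No gene of the programme was called under any alternative listed here, among those each could fit. Where 0 of all genes were called, as given next, MIB1 was not called either. In those settings the 0 for the programme was fixed in advance. The number of called genes among all tested, 6, was 6 with edgeR, 6 with TMM scaling, 6 at a mean count of at least 50 and 5 with DESeq2. It was 0 without a count filter, 0 on log2(RPKM + 0.1), 0 on log2(RPKM + 1) and 0 to 0 with any library left out, all in limma, where 2092, 1442, 1438 and 833 to 1043 genes had an unadjusted p below 0.05. It was 11 with no fold threshold. The cause was not tested. Genes of the programme at an unadjusted p below 0.05, 7 of 48, were 5 to 7 under settings that keep all libraries and no block, and 3 to 7 with a library left out. Their lowest adjusted p was 0.235 to 0.613 under those settings and 0.721 to 0.896 with a library left out. The median, 0.034, was 0.0087 to 0.0385, and -0.0102 to 0.0722 with a library left out.

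Same-numbered libraries deviated together with a correlation of 0.134, over only 2 pairs, and the labels do not say what the numbers mean. With a replicate block, 78 genes were called, 18 genes of the programme (37.5%, beside 20.2% of all genes) had an unadjusted p below 0.05, and 8 had an adjusted p of at most 0.05 (limma), without reaching 2-fold: EIF2AK1, PPP1R15A, ALDH1L2 and PYCR1 higher, and TRIB3, SLC7A5, SLC3A2 and SLC38A2 lower. Of all genes, 1154 (7.13%) passed that adjusted p.

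Of 379 single-gene values from settings that keep all libraries, 370 kept their direction and 9 reversed, all of genes near 0. LARS1 was -0.0116 with edgeR, -0.0052 with DESeq2, -0.0181 with TMM, -0.0221 on log2(RPKM + 0.1) and -0.0217 on log2(RPKM + 1). WARS1 was -0.0029, -0.0040, -0.0088 and -0.0087 with edgeR, TMM and these pseudocounts. With a library left out, 20 genes crossed 0, and their log2 fold changes ranged from -0.0212 to 0.4645 (EIF2AK3), -0.2335 to 0.0901 (ATF4), -0.3188 to 0.0877 (ATF3), 0.00 to 0.0502 (CHAC1), -0.0465 to 0.0878 (SESN2), -0.1924 to 0.0417 (DDIT4), -0.0385 to 0.611 (GDF15), -0.2551 to 0.0152 (STC2), -0.0020 to 0.3283 (ALDH18A1), -0.7504 to 0.0734 (SLC7A11), -0.1267 to 0.2138 (SLC1A5), -0.1321 to 0.1161 (AARS1), -0.0382 to 0.1169 (CARS1), -0.1349 to 0.2476 (EPRS1), -0.0644 to 0.2719 (GARS1), -0.2169 to 0.0143 (IARS1), -0.1945 to 0.1903 (LARS1), -0.2514 to 0.023 (MARS1), -0.0978 to 0.1121 (WARS1) and -0.0203 to 0.2293 (YARS1). A left-out library leaves an arm with a single sample, assumed to vary like the other group.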
